A study of Mus musculus with 2 samples.

Results

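The initiation and elongation factors of cytosolic protein synthesis were described by their transcripts in dendritic cells grown from mouse bone marrow, with 1 library exposed to UNE-C1 and 1 control library. The genes were chosen by name: every symbol in the count tables that starts with Eif or Eef followed by a digit. Left out were Eef1e1 (a synthetase partner despite its name) and names that contain -ps (pseudogenes). This gave 63 of the 23238 symbols, and the 4 kinases that phosphorylate eIF2 alpha are among them. Of these, 59 had 50 or more reads in at least 1 library and were compared, out of 10469 such genes overall. The other 4 were Eif5a2 (16 reads in the UNE-C1 library and 30 in the control), Eif3j1 (2 and 3 reads), the germline cap-binding gene Eif4e1b and the Y-linked Eif2s3y. Eif4e1b and Eif2s3y had 0 reads in both libraries, where 0 reads allows up to 0.211 CPM (read numbers scaled to a library size in common) in the UNE-C1 library and 0.179 CPM in the control. The 3 compared genes closest to the floor were Eef2k, Eif2b3 and Eef1a2, with 34, 31 and 20 reads in the UNE-C1 library and 82, 105 and 122 in the control.

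The UNE-C1 group was a culture given 100 nM UNE-C1, a domain of cysteinyl-tRNA synthetase, for 24 h, and the control group was a culture labelled as control, for which no vehicle is named (the labels carry the same treatment text for both). Marrow for both came from female C57BL/6 mice aged 7 weeks. It was cultured with 20 ng/ml GM-CSF, given again on day 3, and non-adherent or loosely attached immature cells were taken on day 6. The labels do not give the number of animals or say whether their cells were pooled. The study's title asks for signalling molecules induced by the treatment. Each group had 1 library, so no p-value can be given: every difference below lies between 2 libraries, and the intervals (95%, exact) cover counting error only.

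Protein synthesis starts when eIF2 brings the initiator tRNA to the small ribosomal subunit, with eIF1, eIF1A, eIF3 and eIF5, and when the eIF4F complex (the cap-binding protein eIF4E, the scaffold eIF4G and the helicase eIF4A) loads that subunit onto a messenger RNA. Elongation then needs eEF1A, which delivers aminoacyl-tRNA, its exchange factor eEF1B, and eEF2, which moves the ribosome along. Cells hold initiation back in 2 well-known ways, through kinases that phosphorylate eIF2 alpha and through eIF4E-binding proteins that keep eIF4E away from eIF4G. Many elongation factor and some eIF3 messages share with ribosomal protein messages a 5' terminal pyrimidine tract that ties their translation to mTOR signalling.

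The UNE-C1 library held 15975821 reads and the control library 14857198. Factor transcripts took 0.596% of the UNE-C1 reads (interval 0.592 to 0.5999) and 0.962% of the control reads (0.957 to 0.967). Read numbers were scaled by TMM, which matches the libraries on the bulk of their genes. Under scaling by total counts the median of all genes moved by -0.32 on the log2 scale, and the median of the factors with it. In a bulk library, fewer cells of a type and less RNA per cell cannot be told apart. Of the dendritic cell markers, 8 of 8 were past the floor with a summed level of 10700 CPM in the UNE-C1 library and 11874 CPM in the control. Most of that sum came from Cd74, H2-Ab1 and H2-Aa, so it says little about the rest. Of the 8, 6 had log2 fold changes below 0 (Flt3 at -0.83) and 2 above. Only Itgax, which encodes CD11c, was at least 2-fold lower. Past the floor, 9.42% of all genes were at least 2-fold lower and 9.31% higher. Among markers of dividing cells 11 of 13 were at least 2-fold lower (summed level 129 CPM in the UNE-C1 library, 558 CPM in the control), and none was at 0. Among neutrophil markers 10 of 11 were at least 2-fold lower and 1, Lcn2, higher (3758 CPM and 8530 CPM). Macrophage markers summed to 2205 CPM in the UNE-C1 library and 3477 CPM in the control (4 of 6 past the floor lower, Adgre1 higher), and mast cell, basophil and eosinophil markers to 797 CPM and 1212 CPM (2 of 5 lower). None of the B cell or of the T and natural killer cell markers reached the floor, and Pax5 and Cd3e had 0 reads in both libraries. The part of these cell markers in the values below was not tested.

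Elongation factor transcripts were lower in the UNE-C1 library, initiation factors were mixed, and 2 genes that hold initiation back stood far above the rest. Other genes that hold initiation back went both ways in log2 fold change. Eif4ebp2 (-0.64), Eif2ak3 (-0.87) and Eif2ak4 (-0.19) were below 0, and Eif2ak1 (0.09) and Eif4ebp3 (0.35) above it. Eif4ebp1, which encodes the eIF4E-binding protein 4E-BP1, and Eif2ak2, which encodes the double-stranded RNA-activated kinase PKR, were the 2 of 59 genes (3.39%) at least 2-fold higher on the log2(CPM + 1) scale, against 9.31% of all genes past the floor. At least 2-fold lower were 6 of 59 (10.2%): Eef1a2, Eef1a1, Eif2b3, Eif5a, Eef1d and Eif2s3x. That share is close to the 9.42% of all genes. Below 0 were 38 of 59 (64.4%, all genes 50.4%). All 38 stayed below 0 under the 4 scalings used (all genes 49.7%). This says little about robustness, since total counts move values down and DESeq2 size factors hardly move them (all-gene medians -0.33 and 0.004). Above 0 under the 4 scalings were 10 of 59 (16.9%, all genes 28.7%). The median log2 fold change of the 59 was -0.19, against -0.00 for all genes. With total counts 16 of 59 (27.1%) were at least 2-fold lower, against 16.2% of all genes, and the same 2 of 59 (3.39%) higher, against 6.28%.

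**Figure D1:**
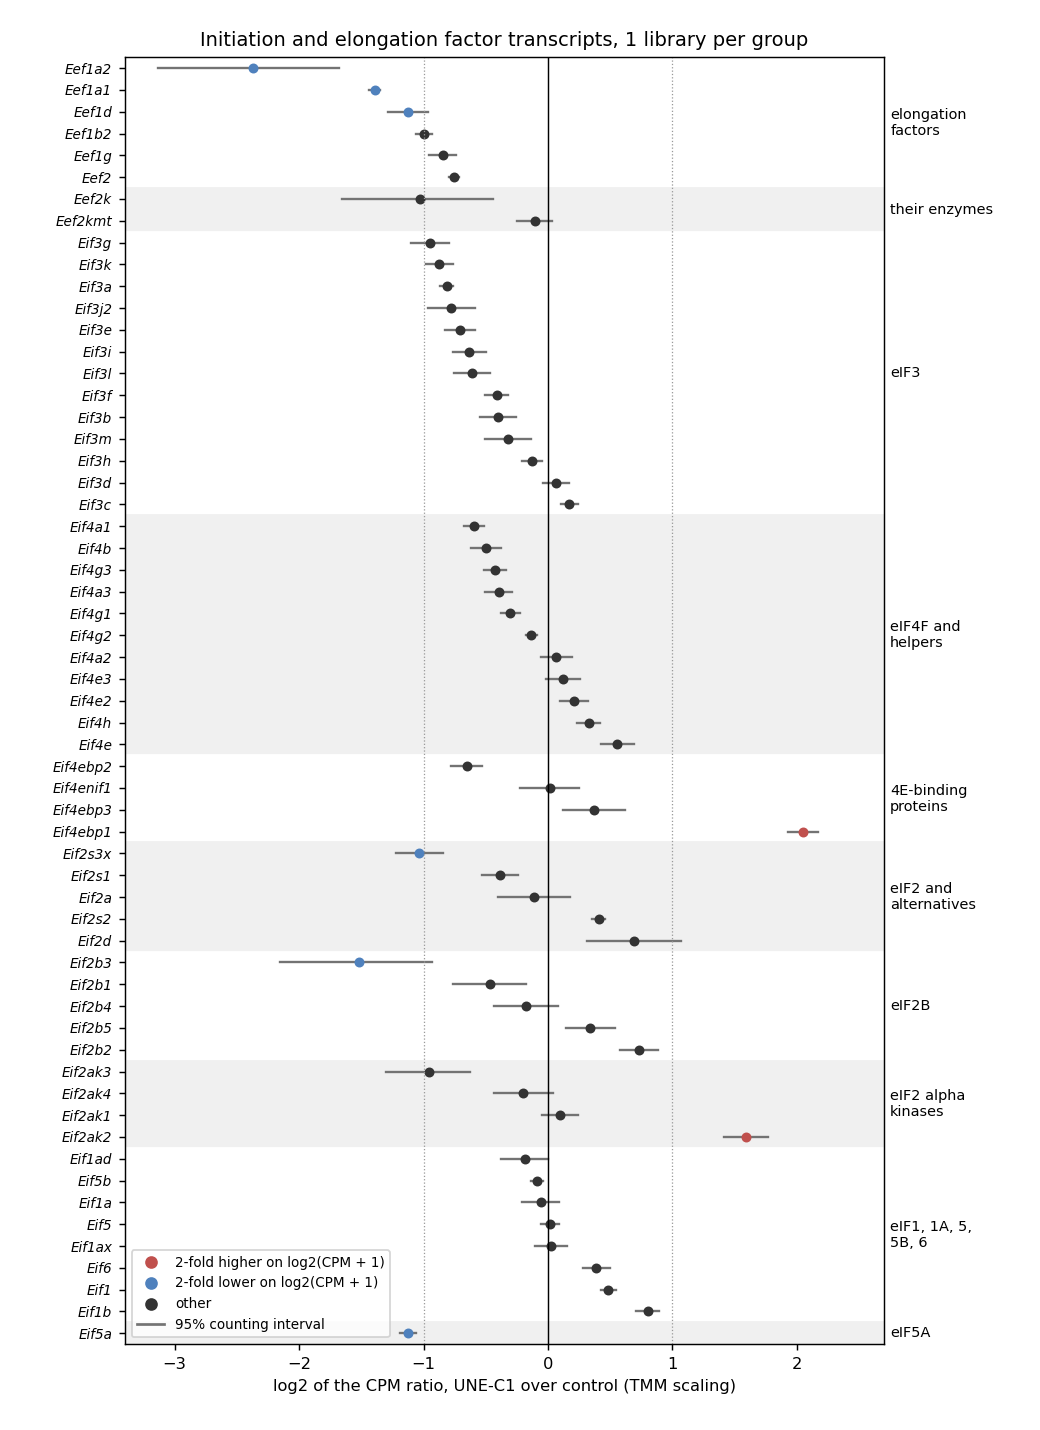
Each point is the plain ratio of CPM, UNE-C1 over control, of 1 of the 59 genes on a log2 axis, grouped by role, with its 95% counting interval; dotted lines mark 2-fold. Eif4ebp1 (4.13-fold higher) and Eif2ak2 (3.01-fold higher) stand to the right of all others, and all 6 elongation factors lie left of 0; Eef2k, left of the dotted line by plain ratio, is not counted as 2-fold lower once 1 CPM is added.

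Factors were set beside other genes of like level. Among genes averaging 150 CPM or more, 10 of 14 factors were below 0, 2 were 2-fold lower and none was 2-fold higher, while of the 1091 other genes at such levels 36.6% were below 0, 4.77% were 2-fold lower and 21.2% were 2-fold higher. The medians were -0.22 for those 14 factors and 0.25 for the other genes. At 60 to 150 CPM, 9 of 18 factors were below 0, beside 40.1% of 1662 other genes, with medians of -0.19 and 0.13. At 20 to 60 CPM, 11 of 16 were, beside 46.3% of 3115 other genes, with medians of -0.25 and 0.05. Among genes averaging under 20 CPM, 8 of 11 factors were below 0, beside 60.1% of 4542 other genes, and the medians were -0.19 and -0.16. The difference between the factors and other genes of like level has no replicate error and was not tested.

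The elongation machinery proper showed the same direction in 6 of 6 genes, with a median log2 fold change of -1.04. Eef1a1, the main gene for eEF1A, had 6007 reads in the UNE-C1 library and 18608 in the control, or 423 CPM and 1112 CPM (2.63-fold lower, interval 2.55 to 2.7). Eef2, the translocation factor, had 7207 and 14343 reads, or 508 CPM and 857 CPM (1.69-fold lower, 1.64 to 1.74). Eef1a1 was thus the highest factor in the control library, while Eef2 was the highest in the UNE-C1 library. Reads near the 3' end do not scale with transcript length, but levels of different genes also depend on how well each 3' end is captured and mapped, and Eef1a1, unlike Eef2, has near-identical copies (below). Their ratio, which no scaling between libraries affects, was 0.833 Eef1a1 reads per Eef2 read in the UNE-C1 library and 1.297 in the control.

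All 3 genes of the exchange factor eEF1B were lower, by 1.797- to 2.18-fold. Eef1b2, the alpha subunit, was at 182 CPM in the UNE-C1 library and 363 CPM in the control (1.99-fold lower, 1.90 to 2.09). Eef1g, the gamma subunit, was at 74.1 CPM and 133 CPM (1.797-fold lower, 1.67 to 1.94). Eef1d, the delta subunit, was at 30.9 CPM and 67.4 CPM (2.18-fold lower, 1.95 to 2.44). Their proportions differed less: Eef1b2 made 63.5% of eEF1B reads in the UNE-C1 library (62.0 to 64.9) and 64.4% in the control (63.5 to 65.4). Eef1a2, the eEF1A gene known from muscle and neurons, was a trace beside Eef1a1, with 20 reads in the UNE-C1 library and 122 in the control (5.17-fold lower, 3.21 to 8.76). It held 0.332% of eEF1A reads in the UNE-C1 library (0.203 to 0.512) and 0.651% in the control (0.541 to 0.777).

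Eif5a, whose product carries the hypusine residue and helps elongation past difficult sequences, was at 203 CPM in the UNE-C1 library and 443 CPM in the control (2.18-fold lower, 2.09 to 2.28). Its paralogue Eif5a2 held 0.552% (0.316 to 0.895) and 0.403% (0.272 to 0.575) of the pair's reads. Eef2k, the kinase that switches eEF2 off, had 34 reads in the UNE-C1 library and 82 in the control, 2.04-fold lower by plain ratio (1.36 to 3.15) with a log2 fold change of -0.80. Eef2kmt, an eEF2 lysine methyltransferase, was at 52.3 CPM and 56.4 CPM, with an interval of the ratio that spans 1 (0.842 to 1.02). As a share of all factor reads, the 6 elongation factors took 18.2% in the UNE-C1 library (17.9 to 18.4) and 29.7% in the control (29.5 to 29.98).

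**Figure D2:**
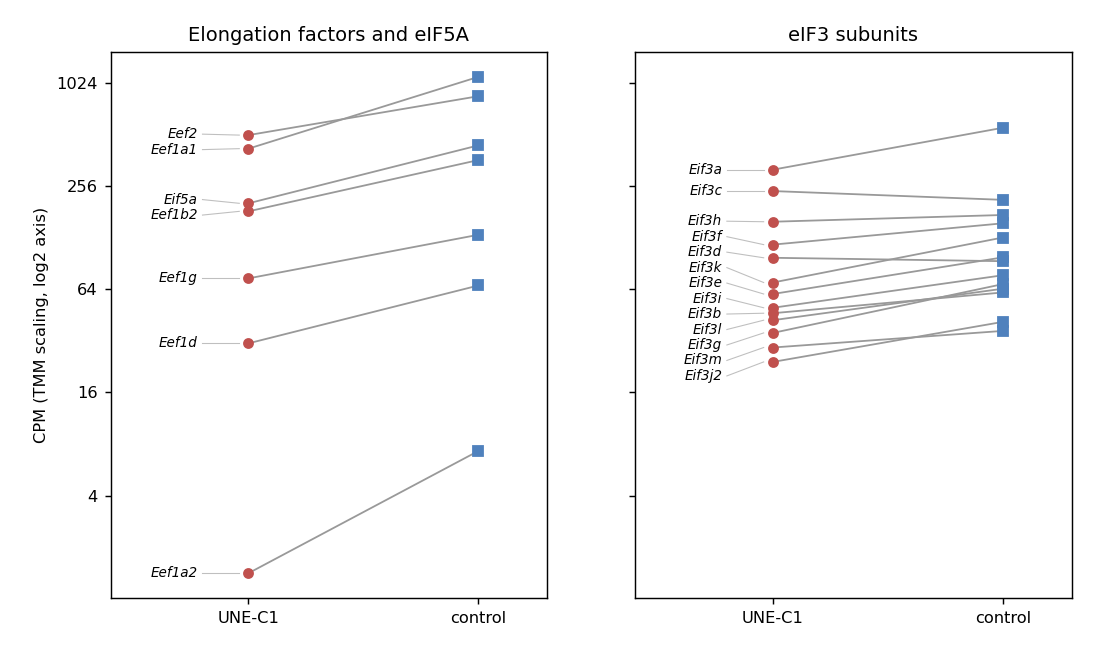
Levels in CPM (log2 axis) of the 6 elongation factors and Eif5a (left) and of the 13 eIF3 genes past the floor (right), with the UNE-C1 library as circles and the control library as squares, joined by gene. All 7 lines on the left end higher at the control, and their UNE-C1 levels span 1.41 CPM (Eef1a2) and 508 CPM (Eef2); on the right Eif3c and Eif3d are the 2 that do not.

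Several of these genes have near-identical copies in the genome, so their reads could be shared. Over the last 300 bases of their transcripts, 14 of the 59 genes matched another GENCODE gene at 97% identity or more across at least 100 bases, among them Eef1a1 (11 such genes), Eif1, Eif5a, Eef1b2, Eif2s2 and Eif2s3x. For Eef1d the match was the overlapping neighbour Naprt. Eif1 matched 6 genes, 1 of them counted, with 1631 reads in the UNE-C1 library and 1271 in the control. Those reads were not added to Eif1. Eif4e matched 1 gene, for which no reads were listed. Of the Eef1a1 copies, the files list Gm6548, with 788 reads in the UNE-C1 library and 1066 in the control. With its reads added, Eef1a1 was 2.45-fold lower (2.39 to 2.52), and its reads per Eef2 read were 0.943 in the UNE-C1 library and 1.37 in the control. Among the 45 genes with no such copy, 2 were at least 2-fold lower (4.44%, below the 9.42% of all genes), Eef1a2 and Eif2b3, and the median was -0.18.

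eIF3, the multi-subunit scaffold of initiation, was lower as a group. Of 13 genes past the floor, 11 were below 0 by TMM (84.6%, all genes 50.4%), with a median of -0.60 by TMM and -0.94 with total counts. None was 2-fold lower by TMM, while Eif3g, Eif3k, Eif3a, Eif3j2 and Eif3e were with total counts. Summed, its transcripts were at 1290 CPM in the UNE-C1 library and 1772 CPM in the control (1.37-fold lower, 1.35 to 1.40). Eif3a, which encodes the largest subunit, was at 319 CPM and 561 CPM (1.76-fold lower, 1.70 to 1.82) and took 24.8% of eIF3 reads in the UNE-C1 library (24.1 to 25.4) and 31.6% in the control (31.1 to 32.2). The lowest member was Eif3g, an RNA-binding subunit, at 35.6 CPM and 68.6 CPM (1.93-fold lower, 1.73 to 2.14). Eif3k and Eif3e had log2 fold changes of -0.86 and -0.70.

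The subunits did not share 1 change. Eif3c, a core subunit that contacts eIF1 and eIF5, was the highest, at 240 CPM in the UNE-C1 library and 213 CPM in the control (1.13-fold higher, 1.07 to 1.18). That direction turned with total counts, to a log2 value of -0.17. Its share of eIF3 reads, which no scaling affects, was 18.6% in the UNE-C1 library (18.0 to 19.1) and 12.01% in the control (11.6 to 12.4). Eif3d, a subunit with its own cap-binding activity, had a log2 fold change of 0.07, and Eif3h one of -0.13. Nearly all reads of the 2 genes for subunit j fell on Eif3j2 (342 in the UNE-C1 library, 691 in the control), a near-identical copy of Eif3j1, so that the source of those reads is uncertain.

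The genes named for eIF4F subunits and helpers were mixed, with 6 of 11 below 0 (54.5%, all genes 50.4%) and none 2-fold away (median -0.13). Not all of them encode parts of that complex, as given below for Eif4a3, Eif4g2 and Eif4e2. Eif4a1, the main helicase gene, was the lowest at 149 CPM in the UNE-C1 library and 226 CPM in the control (1.51-fold lower, 1.43 to 1.59). Its paralogue Eif4a2 was at 68.2 CPM and 65.02 CPM, with an interval that spans 1 (0.960 to 1.14). Within the eIF4A genes the Eif4a1 share was 49.6% in the UNE-C1 library (48.1 to 51.1) and 56.3% in the control (55.1 to 57.5), and the Eif4a2 share 22.6% (21.4 to 23.9) and 16.2% (15.4 to 17.1). Eif4a3, which belongs to the exon junction complex, made up 27.8% (26.4 to 29.1) and 27.5% (26.4 to 28.6).

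The scaffolds were all lower by small amounts. Eif4g1 was at 179 CPM in the UNE-C1 library and 221 CPM in the control (1.23-fold lower, 1.17 to 1.297). Eif4g3 was at 114 CPM and 154 CPM (1.34-fold lower, 1.26 to 1.43). Eif4g2, also called DAP5, lacks the eIF4E-binding site and was the most abundant of the 3, at 448 CPM and 491 CPM (1.10-fold lower, 1.06 to 1.13). Of the helicase partners, Eif4b had a log2 fold change of -0.49 and Eif4h one of 0.33, which turned to -0.01 with total counts.

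The cap-binding genes were on the other side of 0. Eif4e had 1075 reads in the UNE-C1 library and 861 in the control, or 75.8 CPM and 51.5 CPM (1.47-fold higher, 1.35 to 1.61), and stayed above 0 under the 4 scalings. Eif4e2, which encodes the repressive cap-binding protein 4EHP, was at 86.0 CPM and 74.3 CPM (1.16-fold higher, 1.07 to 1.25). Eif4e3 was at 59.99 CPM and 55.1 CPM, with an interval of 0.991 to 1.20. Eif4e2 and Eif4e3 were below 0 with total counts, at -0.13 and -0.22.

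Eif4ebp1 was the highest of the 59 genes and ranked 307 of 10469 overall. It lies on chromosome 8 from 27260329 to 27276674 (plus strand, GRCm38, the build of all positions here, GENCODE M21). It had 2514 reads in the UNE-C1 library and 718 in the control, or 177 CPM and 42.9 CPM (4.13-fold higher, 3.80 to 4.49). Of the 2 related genes, 1 was lower and 1 was higher by far less. Eif4ebp2 was at 57.7 CPM in the UNE-C1 library and 90.8 CPM in the control (1.57-fold lower, 1.44 to 1.71). Eif4ebp3 was at 20.0 CPM and 15.5 CPM (1.29-fold higher, 1.09 to 1.53), and its 3' end is shared with a longer read-through gene. With total counts the log2 fold change of Eif4ebp3 was 0.02.

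The most abundant member of the family thus differed between the libraries. Eif4ebp1 made up 69.5% of the reads of the 3 genes in the UNE-C1 library (68.0 to 71.0) and 28.8% in the control (27.0 to 30.6), and Eif4ebp2 22.6% (21.3 to 24.0) and 60.9% (58.9 to 62.8). There were 2.34 Eif4ebp1 reads for each Eif4e read in the UNE-C1 library and 0.834 in the control, and 0.762 and 1.77 Eif4ebp2 reads. The 3 genes together stood at 255 CPM and 149 CPM (1.71-fold higher, 1.62 to 1.798). Eif4enif1, which encodes the eIF4E transporter 4E-T, was at 19.2 CPM and 19.1 CPM.

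**Figure D3:**
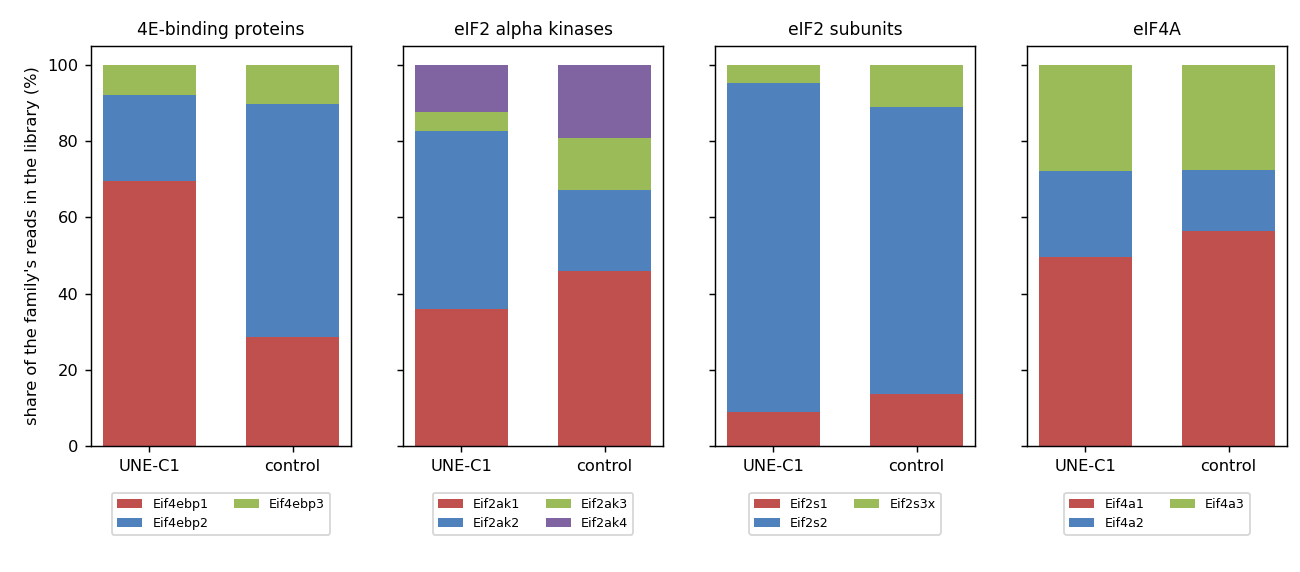
Bars give the share of a family's reads that fell on each gene (percent, from 0 to 100) in the UNE-C1 library (left bar) and the control library (right bar), which no scaling between libraries affects. Eif4ebp1 takes 69.5% against 28.8%, Eif2ak2 46.7% against 21.2% and Eif2s2 86.3% against 75.3%, while Eif4a3 is nearly level.

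eIF2 alpha kinases pause initiation by turning eIF2 into an inhibitor of its exchange factor eIF2B. Eif2ak2, the PKR gene (chromosome 17, 78852564 to 78882573, minus strand), had 975 reads in the UNE-C1 library and 382 in the control, or 68.7 CPM and 22.8 CPM (3.01-fold higher, 2.67 to 3.40). Eif2ak1, the heme-regulated kinase HRI, was at 52.9 CPM and 49.6 CPM, with an interval that spans 1 (0.966 to 1.18). Eif2ak4, the amino acid sensor GCN2, was at 18.1 CPM and 20.8 CPM, with an interval that also spans 1 (0.739 to 1.03). Eif2ak3, the endoplasmic reticulum kinase PERK, had 107 reads in the UNE-C1 library and 245 in the control (1.94-fold lower, 1.54 to 2.46).

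PKR thus took the first place among the kinases. Eif2ak2 made up 46.7% of the kinase reads in the UNE-C1 library (44.5 to 48.8) and 21.2% in the control (19.3 to 23.1). Eif2ak1 made up 35.9% (33.9 to 38.0) and 46.0% (43.7 to 48.3), and Eif2ak3 5.12% (4.21 to 6.15) and 13.6% (12.03 to 15.2). PKR is a textbook interferon-stimulated gene, and its RefSeq promoter window (GRCm38.p6, from 250 bases before to 50 after the annotated start) holds a match to the core of the interferon-stimulated response element (GAAA, any 2 bases, GAAA), shown in capitals. The match starts 19 bases into the annotated transcript, and the stretch printed 5' to 3' on the gene's strand, cut short of the window's end, is chr17:78882543-78882569.

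Eif2ak2: ggcggagtccgccggGAAAACGAAAca

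Of 49 factor genes with such a window, 4 (8.16%) held this motif on either strand, beside 3.99% of all 27025 genes with a window, non-coding genes included. The other 3 were Eif2s1, Eif2s3x and Eif3a, with log2 fold changes of -0.38, -1.002 and -0.81. A match of letters is not a site of binding. Eif4ebp1 was not among the 49. The C/EBP-ATF core, TGATGNAA, was found in Eef2k and Eif2s3x (4.08% of the 49, all genes 4.51%).

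A second motif, the E-box CACGTG that MYC and related factors can bind, was more frequent. It was in 12 of the 49 windows' genes (24.5%), beside 8.09% of all genes with a window, non-coding genes included. No background of coding genes of like level was computed for that comparison. Of the 12 genes, Eif3a also held the interferon motif and Eef2k the C/EBP-ATF core, with no shared bases. Its 11 genes past the floor had a median log2 fold change of -0.59 with 8 below 0 (all genes 50.4%), and the 35 without it a median of -0.17 with 21 below 0. That difference has no replicate error and was not tested. The 5 sites below come from genes lower (Eef2, Eif3k, Eif4a1) and higher (Eif4e, Eif1b) in the UNE-C1 library, to show that the letters occur in both. They are printed 5' to 3' on the gene's strand with the motif in capitals, and lie at chr10:81176573-81176608, chr7:28981912-28981947, chr11:69672592-69672627, chr3:138527189-138527224 and chr9:120492567-120492602.

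Eef2: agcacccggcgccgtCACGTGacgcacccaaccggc

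Eif3k: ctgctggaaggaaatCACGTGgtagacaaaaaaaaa

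Eif4a1: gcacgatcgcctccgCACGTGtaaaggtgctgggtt

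Eif4e: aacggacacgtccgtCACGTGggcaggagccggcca

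Eif1b: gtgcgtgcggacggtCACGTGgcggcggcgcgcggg

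The 3 subunits of eIF2 itself diverged. Eif2s2, the beta subunit, had 6172 reads in the UNE-C1 library and 5491 in the control, or 435 CPM and 328 CPM (1.33-fold higher, 1.28 to 1.38). Its log2 fold change was 0.41 by TMM and 0.06 with total counts. Eif2s1, the alpha subunit that the kinases phosphorylate, was at 45.5 CPM and 59.4 CPM (1.31-fold lower, 1.18 to 1.44). Eif2s3x, the gamma subunit that binds GTP and the initiator tRNA, was at 23.5 CPM and 48.2 CPM (2.05-fold lower, 1.798 to 2.33). The last value sat at the edge of the 2-fold threshold, with a log2 fold change of -1.002 that passed by TMM but not with DESeq2 size factors.

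Beta subunit reads far outnumbered those of the partners in both libraries, although the protein complex has 1 of each. There were 9.57 Eif2s2 reads per Eif2s1 read in the UNE-C1 library and 5.52 in the control, and 0.518 and 0.811 Eif2s3x reads. Eif2s2 has a near-identical copy, and so has Eif2s3x. A pair of factors that can deliver tRNA without eIF2 were measured as well. Eif2d was at 10.0 CPM in the UNE-C1 library and 6.22 CPM in the control (1.61-fold higher, 1.24 to 2.09), and Eif2a at 12.3 CPM and 13.3 CPM (interval 0.755 to 1.13).

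The 5 genes of eIF2B, the exchange factor that recharges eIF2, also pointed both ways. Eif2b3, the gamma subunit, had 31 reads in the UNE-C1 library and 105 in the control (2.87-fold lower, 1.91 to 4.44). Eif2b2, the beta subunit, had 836 and 593 reads (1.66-fold higher, 1.495 to 1.85). Eif2b5, the catalytic epsilon subunit, was at 30.8 CPM and 24.3 CPM (1.27-fold higher, 1.10 to 1.45), a direction that turned with total counts (-0.00). Eif2b1 and Eif2b4 had log2 fold changes of -0.43 and -0.17.

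The group of start codon selection and subunit joining held the eIF1, eIF1A, eIF5, eIF5B and eIF6 genes. Eif1ad, related by name, was counted with them. The 8 genes had a median of 0.02. That median became -0.32 with total counts, and by TMM the values ranged between -0.18 and 0.79. Eif1, which guards the fidelity of start codon choice, had 5315 reads in the UNE-C1 library and 4479 in the control, or 375 CPM and 268 CPM (1.40-fold higher, 1.35 to 1.46). Eif1b, its paralogue, was at 157 CPM and 90.3 CPM (1.74-fold higher, 1.63 to 1.86), the third highest fold change of the 59. Both stayed above 0 under the 4 scalings. The Eif1b share of the pair's reads was 29.6% in the UNE-C1 library (28.5 to 30.6) and 25.2% in the control (24.1 to 26.3).

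The other genes of this group lay closer to 0. Eif5, the GTPase activator of eIF2, was at 210 CPM in the UNE-C1 library and 208 CPM in the control (interval 0.961 to 1.06), so that Eif1 reads per Eif5 read were 1.78 and 1.29. Eif5b, the GTPase that joins the ribosomal subunits, was among the 5 most abundant factors of the UNE-C1 library, at 423 CPM and 450 CPM (1.07-fold lower, 1.03 to 1.10). Eif6, which keeps the large subunit from joining too early, was at 103 CPM and 78.6 CPM (1.31-fold higher, 1.21 to 1.41). Its log2 fold change was 0.38 by TMM and 0.04 with total counts. Eif1a, Eif1ax and Eif1ad lay between -0.18 and 0.02, Eif1ad being the lowest of the group at 29.5 CPM and 33.6 CPM.

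Other parts of the translation pathway were set beside the factors. Their lists were drawn up by role with earlier results of these data known, so their shares are not an independent comparison. Of release, recycling and poly(A)-binding genes, 4 of 13 past the floor were at least 2-fold lower (30.8%, all genes 9.42%) and none higher (all genes 9.31%), with a median of -0.41. On the log2(CPM + 1) scale the largest changes were those of Pabpc4, a poly(A)-binding protein (3.64-fold lower by plain ratio, 2.61 to 5.18), and of Abce1, the ATPase that splits ribosomes (2.27-fold lower, 1.91 to 2.71). By plain ratio the other 2, Paip2b and Gspt2, with fewer reads, were further down than Abce1, at 2.51-fold (1.62 to 4.01) and 2.45-fold (1.79 to 3.39) lower. Of genes that carry mTORC1 and MNK signals toward eIF4E, 1 of 17 was at least 2-fold higher (5.88%, all genes 9.31%) and 3 lower (17.6%, all genes 9.42%), with a median of 0.08, or -0.24 with total counts. The mTORC1 inhibitor Ddit4 was at 145 CPM in the UNE-C1 library and 13.2 CPM in the control (10.97-fold higher, 9.55 to 12.7), and the mTOR-binding inhibitor Deptor at 6.42 CPM and 52.6 CPM (8.20-fold lower, 6.60 to 10.3). The other lower genes were Sesn1, a sestrin that restrains mTORC1, with 39 reads in the UNE-C1 library and 276 in the control (log2 fold change -2.22), and Pdcd4, which blocks eIF4A (2.57-fold lower, 2.10 to 3.15). Mtor was 1.43-fold higher (1.24 to 1.66).

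Of 11 partners of the integrated stress response, which eIF2 alpha kinases set off, 4 were at least 2-fold higher (36.4%, all genes 9.31%) and none lower (all genes 9.42%), with a median of -0.02. Atf4, its transcription factor, was at 508 CPM in the UNE-C1 library and 223 CPM in the control (2.28-fold higher, 2.19 to 2.37). Ddit3 was 3.74-fold higher (3.47 to 4.03), and Trib3, a pseudokinase, had 295 and 12 reads (29.0-fold higher, 16.4 to 56.8). Ppp1r15a, which encodes the phosphatase subunit GADD34 that reverses eIF2 alpha phosphorylation, was 2.05-fold higher (1.85 to 2.26). With total counts Atf4 and Ppp1r15a, at 0.84 and 0.68, no longer reached 2-fold. The kinase inhibitor Dnajc3 was the lowest of the list at -0.57.

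Genes that modify eIF5A or eEF2 had 0 of 8 past 2-fold in either direction (all genes 9.31% higher and 9.42% lower), with a median of -0.36. The largest changes were those of the diphthamide genes Dph3 and Dnajc24 at -0.73 and -0.70. Of 10 mitochondrial translation factors, 1 was at least 2-fold lower, a share close to the 9.42% of all genes, and the median was -0.24. That gene was the elongation factor Guf1 (2.23-fold lower, 1.72 to 2.92). After Guf1 the largest change was that of Tsfm, at -0.70. Cytosolic ribosomal protein genes, the largest related set, had 72 of 75 below 0 (96%, all genes 50.4%). They were taken by name, as Rpl or Rps followed by a number. That leaves out Rpsa and the Rplp genes and takes in Rpl7l1. Of the 75, 10 were at least 2-fold lower (13.3%, all genes 9.42%) and none higher (all genes 9.31%), with a median of -0.70. The elongation factors, at -1.04, and eIF3, at -0.60, lay nearer that median than the factors as a whole, at -0.19. The difference between these sets was not tested.

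**Figure D4:**
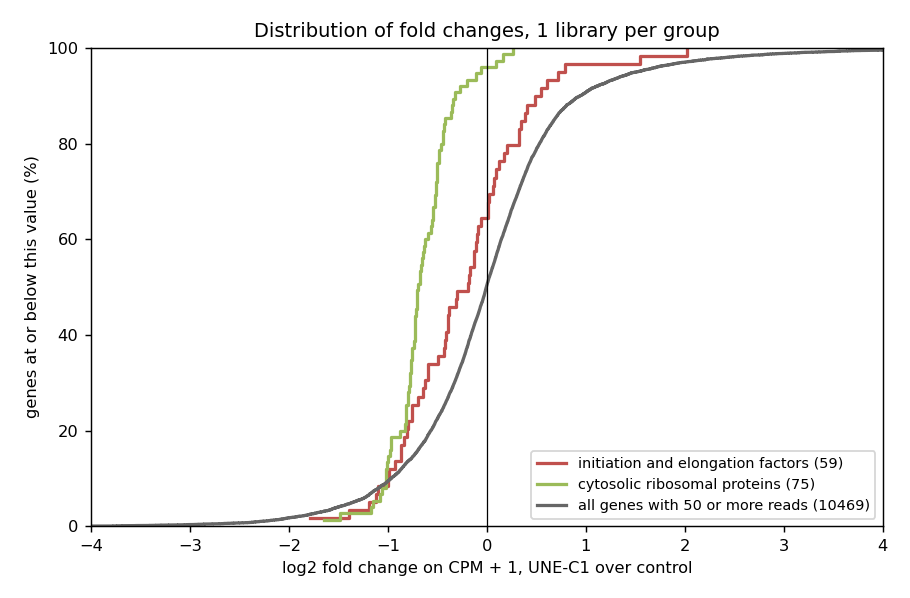
Cumulative share of genes (percent) at or below each log2 fold change, UNE-C1 over control on CPM + 1, for the 59 initiation and elongation factors, 75 cytosolic ribosomal protein genes and all 10469 genes with 50 or more reads. At 0 the curves stand at 64.4% for the factors, 96% for the ribosomal proteins and 50.4% for all genes, and the factor curve ends at 2.02 with Eif4ebp1.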

How the data were processed

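What the authors deposited are counts, whole reads for each symbol, and nothing in the values shows a normalization. Per the labels' protocols, 500 ng of RNA went into each QuantSeq preparation, a method that sequences messages close to the 3' end. Per the submitters' processing notes Bowtie2, edgeR and the mm10 build were used. The counter, annotation, strand setting and handling of multiply mapped reads are not stated in those notes or labels. PCR copies cannot be told from separate molecules.

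Reads of 35 repeated symbols were summed. CPM used TMM effective library sizes (edgeR 4.0.16, R 4.3.3; factors 0.888 for UNE-C1 and 1.13 for control). Log2 fold changes are of CPM + 1, which understates changes of genes with few reads; a "-fold" divides CPM by CPM with nothing added, and its interval is an exact Clopper-Pearson one (scipy 1.17.1). The floor was 50 reads in either library. Copies were sought with BLAST+ 2.17.0 in GENCODE M21 transcripts; promoters are RefSeq's.

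With 1 library per group no test was made. The fold change and interval steps were run on simulated counts with counting error only, scaled by total counts. That run did not cover TMM or variation between cultures. Alternatives were total counts with and without Rn45s (3.98% of UNE-C1 and 5.21% of control reads), DESeq2 1.42.0 size factors, pseudocounts of 0.1 and 5 CPM, and floors of 200 reads and 1 read. Genes, lists and roles were chosen with earlier results of these data known. Values are given in full for genes past 2-fold, the 5 most abundant in either library, kinases, cap-binding genes, eIF4E-binding proteins, Eef2k, paralogues, and the highest and lowest of each role, and, in the other lists, for the 2 largest changes and Atf4, Ddit3, Ppp1r15a, Mtor and Pdcd4. Other genes given values, among them Eif3e, Eif3k, Eif3h, Eif4b, Eif4h, Eif2b5, Eif5, Eif6, Eef1b2, Eef1g, Dnajc3, Sesn1, Paip2b and Gspt2, were chosen after their values were seen, as was the alternative without near-identical copies.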

Additional observations from a re-analysis of the deposited data

How the results depend on the processing

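No paired analysis was possible because each group has 1 library, and for the same reason no library could be left out. The count of genes at least 2-fold higher was 2 under all 8 alternatives. The count at least 2-fold lower, 6 as reported, was 16 with total counts, 17 with total counts without Rn45s, 3 with a pseudocount of 5 and 2 without genes that have near-identical copies; under the other 4 it was 4 to 7. The median of -0.19 was -0.52 with total counts and -0.53 with total counts without Rn45s, and lay between -0.20 and -0.16 otherwise. With total counts 11 of the 59 genes changed sign, all of them from above 0 to below: Eif4enif1, Eif5, Eif1ax, Eif3d, Eif4a2, Eif2ak1, Eif4e3, Eif3c, Eif4e2, Eif4h and Eif2b5. None of the 8 genes past 2-fold changed sign under another scaling or pseudocount. A pseudocount cannot change a sign, and total counts could only move the lower genes further down. Depth limits Eef1a2, Eif2b3 and Eef2k most, with 20 to 34 reads in the UNE-C1 library.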

Other observations

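A pair of genes with related names lay outside the set. Eef1e1, which encodes a scaffold of the multi-synthetase complex and not an elongation factor, had 26 reads in the UNE-C1 library and 111 in the control (3.62-fold lower, interval 2.34 to 5.78). Eefsec, the elongation factor for selenocysteine, had 74 and 76 reads, with an interval of the ratio that spans 1 (0.823 to 1.60). Within the 59 factors Spearman's rho between log2 fold change and level was 0.03 across the 59 genes, against 0.23 across 10469 genes; genes are not independent replicates, and both values come from the same 2 libraries.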
